A study of Mus musculus with 36 samples.

Results

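Primary mouse adipocytes that received 5 mM β-hydroxybutyrate (βOHB) for 6 h were compared with adipocytes that received PBS. The comparison held 3 βOHB libraries and 3 control libraries, chosen by their labelled cell type and treatment, out of 36 RNA libraries in all. The stromal vascular fraction of inguinal white fat, collected from 3 to 4 male C57Bl/6 mice, was differentiated with isobutylmethylxanthine, dexamethasone, insulin and rosiglitazone. The cells were kept on insulin and then held in plain serum medium for 3 days before treatment, so both groups share this history. At least 80% of the cells were judged by eye to have differentiated, and the cultures therefore could hold other stromal cells. The same cells with 5 mM butyrate for 6 h (3 libraries) gave a second compound at a matched dose and time. Macrophages, myotubes and hepatocytes given βOHB or PBS served to ask whether an effect was particular to adipocytes. Both compounds were sodium salts and the control was PBS, so an effect of the added salt and an effect of the compound cannot be told apart here. The labels number the libraries 1 to 3 within a group and do not say that they came from separate cultures or animals. P-values therefore measure the spread between these libraries, which may be technical.

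βOHB is the ketone body that the liver makes from fatty acids in fasting and that other tissues oxidize. It enters cells through monocarboxylate transporters, is turned into acetoacetate by Bdh1 and is activated for the TCA cycle by Oxct1. It also binds the receptor Hcar2, which lowers lipolysis in fat cells, and it has been described as an inhibitor of class I histone deacetylases (HDACs), the property for which butyrate is best known. Structurally, βOHB carries a hydroxyl group that butyrate lacks.

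The 6 libraries held between 19210892 and 23221473 estimated counts (median 22933277), and levels below are CPM, counts scaled to library size with TMM factors. Adipocyte genes were abundant in every library. *Adipoq*, the adipokine adiponectin, was at 678, 838 and 747 CPM in the controls, *Fabp4*, the fatty acid carrier of fat cells, at 5950, 6080 and 5590, and *Plin1*, the coat protein of the lipid droplet, at 873, 938 and 876. *Lep*, which encodes leptin, was low at 0.476, 1.55 and 0.887 CPM. Markers of other cell types summed to between 1170 and 1360 CPM for macrophages (23 of 24 genes tested), 9720 and 10500 for preadipocytes and fibroblasts, 404 and 432 for endothelial cells and 308 and 456 for proliferating cells in the controls. In bulk RNA, fewer cells of a type and less RNA per cell cannot be told apart. Control replicate 1 stood apart from the other controls, for example at 791 CPM of *Hmox1*, heme oxygenase, against 315 and 345, and at 688 CPM of *Pdk4*, pyruvate dehydrogenase kinase, against 323 and 341. βOHB replicate 3 stood apart in the interferon genes described below. Of 103 named genes at P below 0.05, 47 were still at that threshold without control replicate 1, 53 without βOHB replicate 3 and 22 without both.

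Few genes differed singly between βOHB and control adipocytes. Of 15340 genes tested with edgeR's quasi-likelihood test, 1 (0.00652%) was lower at a false discovery rate (FDR) below 0.05, with an adjusted p of 0.049, and 0 were higher. All other genes missed that FDR, and those given below as called at P below 0.05 or 0.001 carry no such correction. Limma-voom called 0 genes at that FDR and DESeq2 called 3. At P below 0.001, the threshold of the study, 26 genes (0.169%) were called, 11 of them higher and 15 lower. At P below 0.05 there were 1097 genes (7.15%), 534 higher (3.48%) and 563 lower (3.67%), where a level of 5% alone would give 767. In the same cells butyrate changed 9359 genes (61.0%) at an FDR below 0.05, 4717 of them upward (30.7%) and 4642 downward (30.3%), and 6990 (45.6%) were at P below 0.001. The fold change of the median gene, as an absolute log2 value, was 0.09 with βOHB and 0.42 with butyrate, and the estimate passed 1 on the log2 scale for 484 and 3000 genes. The plot of effect sizes shows the whole distribution. The comparisons share their control libraries.

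**Figure D1:**
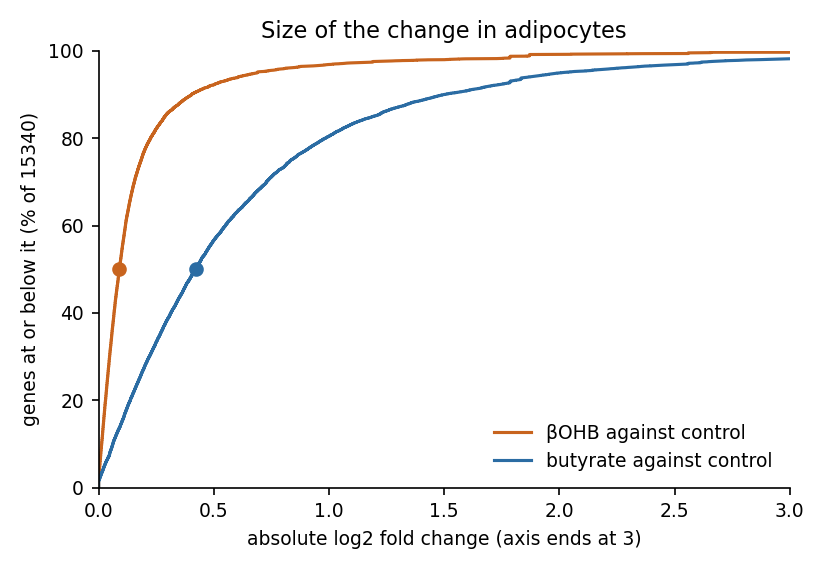
Share of the 15340 tested genes (vertical axis, %) whose absolute log2 fold change against control is at or below the value on the horizontal axis, for βOHB (orange) and butyrate (blue) in adipocytes, with the median of each marked by a point. The medians are 0.09 and 0.42, and the βOHB curve lies above the butyrate curve between these sizes.

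The split of these calls between higher and lower depended on how libraries were scaled, while 0 of the 103 named genes at P below 0.05 turned direction with RLE factors or library totals. With TMM, 11 genes were higher and 15 lower at P below 0.001, against 18 and 12 with RLE factors and 3 and 40 with library totals alone. At P below 0.05 the same choices gave 602 higher and 497 lower with RLE factors, and 302 and 1050 with totals. The number of genes at P below 0.001 also depended on single libraries. Leaving out βOHB replicate 1 gave 99, βOHB replicate 2 gave 43 and βOHB replicate 3 gave 13, while leaving out control replicate 1 gave 11 and control replicate 2 gave 49. At P below 0.05 it was 575 without control replicate 1 and 603 without βOHB replicate 3.

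Most expressed genes were held within narrow bounds. The 95% interval of the log2 fold change lay wholly within ±1, a factor of 2, for 12929 genes (84.3%), and within ±0.5, a factor of 1.41, for 10264 genes (66.9%). Precision rose with expression level. Of 7017 genes at 10 to 100 CPM in controls, 99.4% were bounded within ±1 and 94.8% within ±0.5, and their median interval reached 0.16 to either side, a factor of 1.12. The 1901 genes above 100 CPM had the same shares. Among 3823 genes at 1 to 10 CPM the shares were 93.6% and 47.3%. Among 2599 genes below 1 CPM they were 18.7% and 0.0385%, so a difference of a factor of 2 was not detectable for most of them at this depth. The whole interval lay beyond ±0.5 for 4 genes, *Srp54b*, *Camk2b*, *Zfp941* and *Lancl3*, and beyond ±1 for *Srp54b*. *Zfp941* and *Lancl3* were singled out after their values were seen.

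**Figure D2:**
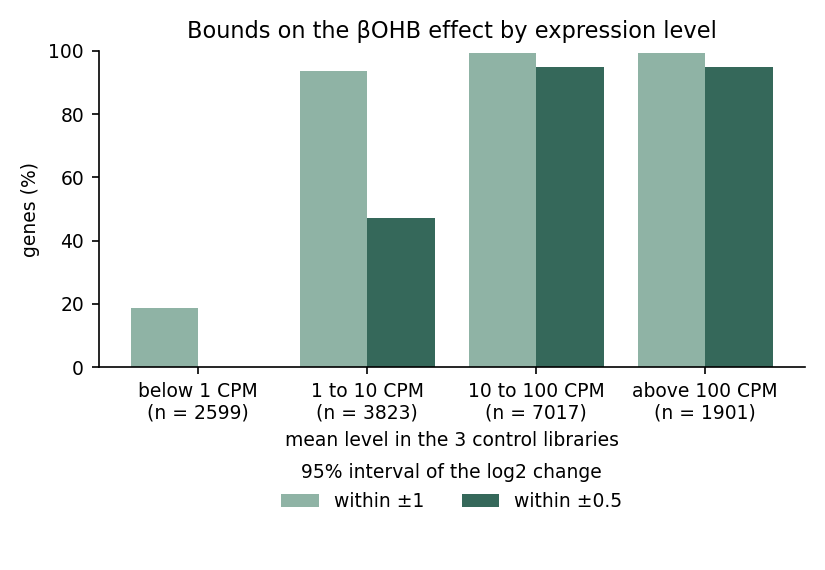
Percentage of genes whose 95% interval of the βOHB against control log2 fold change lies within ±1 (light bars) or ±0.5 (dark bars), by mean CPM in the 3 control libraries, with the number of genes under each pair. From 10 CPM upward 99.4% of genes are bounded within ±1 and 94.8% within ±0.5, whereas below 1 CPM 18.7% and 0.0385% are.

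The gene called at an FDR below 0.05 was *Srp54b* (chromosome 12 from 55155104 to 55189573, GRCm38), 1 of 3 neighbouring copies of the gene for the 54 kDa subunit of the signal recognition particle, which delivers nascent secreted proteins to the endoplasmic reticulum. It measured 27.4, 15.5 and 27.2 CPM in controls and 7.10, 2.91 and 3.38 CPM with βOHB, so every βOHB library lay below every control. The log2 fold change was -2.36 with a standard error of 0.43 and an interval from -3.24 to -1.48. With butyrate the libraries measured 18.9, 22.3 and 38.3 CPM. *Srp54a* (chromosome 12 from 55080262 to 55115367) was at 78.6, 90.4 and 80.3 CPM in controls and 87.4, 86.0 and 89.6 with βOHB, and *Srp54c* (from 55230168 to 55263836) at 82.5, 96.1 and 85.5 against 98.7, 92.4 and 105. The sum of the copies was 195 ± 6.82 CPM in controls and 191 ± 8.59 with βOHB (SD, n = 3), a difference smaller than its spread. What moved was the share of the sum given to *Srp54b*, from 14.5%, 7.66% and 14.1% in controls to 3.68%, 1.6% and 1.71% with βOHB.

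The sequences show how little separates the copies. Over the 1512 coding bases, *Srp54a* and *Srp54b* differed at 0 positions (100% identity) and *Srp54c* differed from each of them at 6 (99.6%). All 3616 stretches of 31 bases in the annotated *Srp54b* transcript also occur in a transcript of another copy, so no such stretch alone marks a read as *Srp54b*. Whole read pairs were not examined. The value of *Srp54b* rests on the estimate of the authors' quantifier and is uncertain. The 60 coding bases 906 to 965 hold the positions at which *Srp54c* differs most densely, with 3 differing bases in capitals.
Srp54a: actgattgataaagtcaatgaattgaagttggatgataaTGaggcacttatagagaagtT
Srp54b: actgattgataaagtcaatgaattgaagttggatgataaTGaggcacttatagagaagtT
Srp54c: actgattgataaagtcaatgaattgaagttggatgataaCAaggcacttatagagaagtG

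The FDR of the other genes at P below 0.001 was 0.177 or more. *Baiap2* (chromosome 11 from 119942763 to 120006782), an actin regulator also found at synapses, measured 45.5, 33.9 and 33.9 CPM in controls and 30.9, 27.2 and 26.8 with βOHB (log2 fold change -0.41, standard error 0.08). Its groups did not overlap. *Pknox2*, a homeobox factor, was at 19.6, 19.5 and 19.2 CPM against 24.3, 22.5 and 27.8 (0.36), and *Dlg4*, the scaffold PSD-95, at 15.9, 17.6 and 17.4 CPM against 22.6, 20.3 and 22.1 (0.35). *Sdk1*, an adhesion protein, was at 7.23, 8.19 and 6.92 CPM against 10.6, 10.0 and 11.0 (0.50). *Il1r1*, the receptor of interleukin-1, was at 136, 148 and 148 CPM in controls and 163, 176 and 175 with βOHB (0.25). All the βOHB libraries lay above the controls for *Pknox2*, *Dlg4*, *Sdk1* and *Il1r1*. *Bid*, a pro-apoptotic member of the Bcl-2 family, was at 15.7, 12.6 and 12.6 CPM against 11.5, 11.6 and 9.10 (-0.35), and *Flt3l*, a cytokine, at 4.16, 4.65 and 3.88 against 2.91, 3.28 and 2.34 (-0.58). *Chchd7*, *R3hcc1*, *Rrp36* and *Aen* were lower by 0.26 to 0.40 on the log2 scale, and *Stxbp4*, *Stx2*, *Adgrl1*, *Zbtb4* and *Nxf1* higher by 0.20 to 0.36. *Rad51ap1* was higher by 0.68 at 1.30 to 3.65 CPM. *Camk2b*, a neuronal kinase subunit, lay below 1 CPM in each of the 6 libraries, with a log2 fold change of -1.42 (interval -2.14 to -0.70), and *Pou3f3* had 3, 4 and 11 counts in controls and 1, 0 and 0 with βOHB. Under 17 alternative settings *Srp54b* stayed at P below 0.001 in 17, *Pknox2* in 14, *Baiap2* and *Hist1h1c* in 13, and *Il1r1* in 10, whereas *R3hcc1*, *Stx2*, *Adgrl1* and *Aen* stayed in 8 and *Stxbp4* and *Nxf1* in 5. Without both control replicate 1 and βOHB replicate 3, the value of *Baiap2* was -0.22, that of *Bid* -0.13 and that of *Aen* -0.10, and those of *Stx2*, *Zbtb4*, *Adgrl1* and *Rad51ap1* were 0.12, 0.11, 0.14 and 0.31. Leaving out control replicate 1 alone gave -0.26 for *Baiap2*, -0.17 for *Aen* and 0.16 for *Zbtb4*, and leaving out βOHB replicate 3 alone gave 0.19 for *Stx2*.

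No difference was detected in genes that use ketone bodies, with the bounds that follow. Per kilobase of exon, the control level was 63.9 CPM for *Slc16a1* (Mct1), 0.177 for *Slc16a7* (Mct2), 105 for *Oxct1* and 0.228 for *Bdh1*. *Slc16a1* measured 358, 243 and 248 CPM in controls and 307, 262 and 196 with βOHB, with overlapping groups and a log2 fold change of -0.15 (interval -0.39 to 0.09). *Oxct1* was at 393, 401 and 374 CPM against 382, 396 and 424, with an interval from -0.11 to 0.19. *Bdh1* was near 1 CPM in both groups, with a wider interval from -0.65 to 0.32. Of 14 ketone body enzymes, 0 passed P below 0.05 with edgeR, limma-voom or DESeq2. Of the 14, 13 were bounded within ±1, beside 84.3% of all genes. *Emb*, a partner protein of monocarboxylate transporters, was the member of the 7 tested transport genes at P below 0.05, at 116, 123 and 112 CPM against 137, 134 and 141 (0.23). That is 1 higher and 0 lower of 7, beside 3.48% higher and 3.67% lower among all genes.

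No receptor of ketone bodies or fatty acids passed P below 0.05 with edgeR. *Hcar2* measured 18.9, 22.1 and 17.5 CPM in controls and 26.8, 19.2 and 17.6 with βOHB (0.12, interval -0.26 to 0.51). *Hcar1*, the lactate receptor, was at 16.5, 22.3 and 20.0 CPM against 24.9, 20.5 and 25.4 (0.27, interval -0.05 to 0.58). *Ffar2*, a receptor of short-chain fatty acids, was at 15.4, 19.5 and 17.6 CPM against 22.2, 16.2 and 20.5 (0.17, interval -0.12 to 0.46). The groups overlapped for all of them. *Ffar3* had 0 counts in each control and 0, 0 and 2 with βOHB, which is under the limit of 3 counts that a count of 0 allows. Of 11 tested receptor and G-protein signalling genes, 0 passed P below 0.05 with edgeR, 4 were higher with limma-voom and 3 with DESeq2, beside 3.81% and 3.62% higher among all genes with those tools, and 10 of the 11 estimates were above 0.

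**Figure D3:**
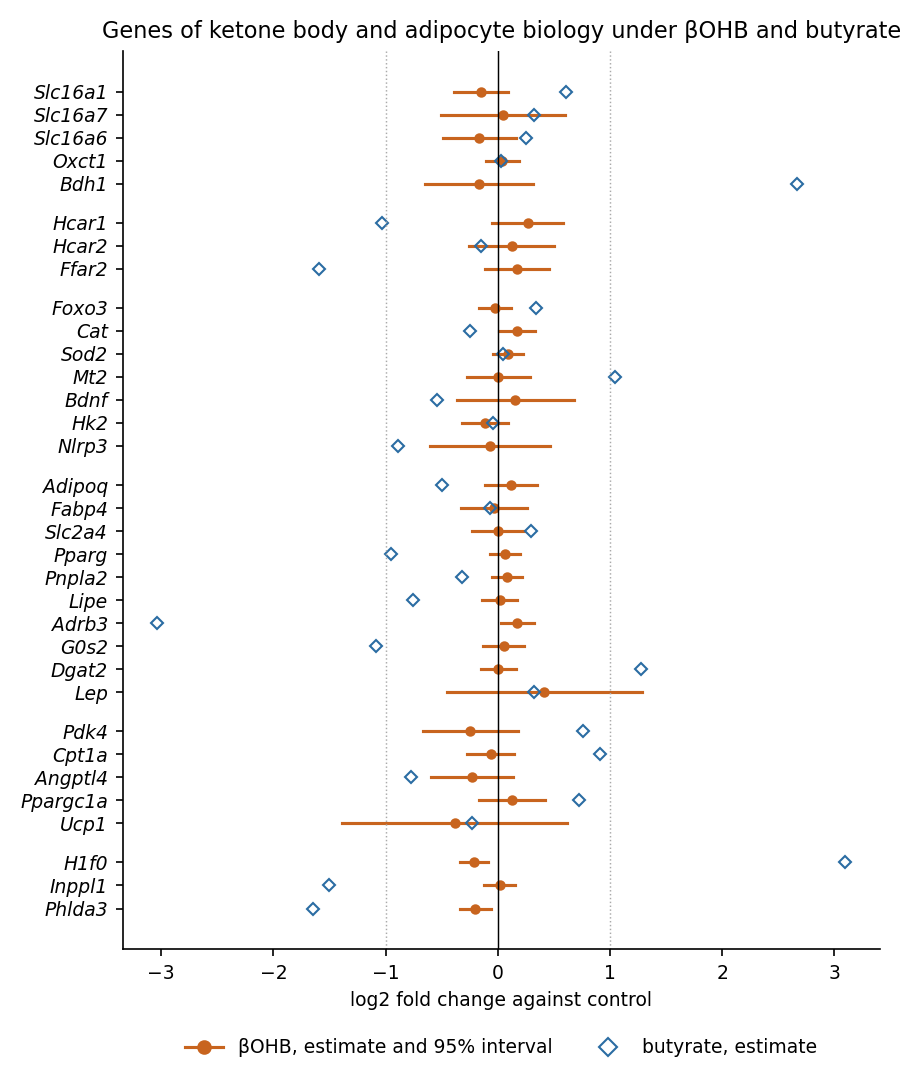
Log2 fold change against control (horizontal axis) for genes of ketone body transport and use, receptors, reported βOHB targets, adipocyte function, fasting and oxidation, and genes known for butyrate, from top to bottom. Orange points and lines are βOHB with the 95% interval, open blue diamonds are butyrate, and dotted lines mark ±1. The βOHB estimates lie between -0.38 for *Ucp1* and 0.42 for *Lep*, while butyrate reaches -3.04 for *Adrb3* and 3.10 for *H1f0*.

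Genes described elsewhere as targets of βOHB were also close to their control level. *Foxo3*, a stress-response factor, was at 54.0, 49.4 and 51.8 CPM in controls and 52.6, 47.4 and 52.5 with βOHB, and its interval ran from -0.17 to 0.12. *Mt2*, a metallothionein, was at 843, 748 and 793 CPM against 850, 859 and 680, with an interval from -0.28 to 0.28. *Cat*, catalase, was at 665, 810 and 783 CPM against 802, 891 and 849 (0.17, interval 0.01 to 0.33), its groups overlapped, and the value was 0.09 without control replicate 1. It was the member of 8 such genes at P below 0.05, beside 3.48% higher among all genes. All 8 were bounded within ±1, beside 84.3% of all genes. Among 31 HDACs, sirtuins and corepressors, 0 passed P below 0.05 with edgeR, limma-voom or DESeq2. Of these, 29 were bounded within ±0.5, beside 66.9% of all genes. *Hdac1*, for example, had an interval from -0.07 to 0.14 and *Hdac3* from -0.04 to 0.16.

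The genes of linker histones H1.2 and H1.0, which butyrate is known to induce, were each lower with βOHB at P below 0.05. Other linker histone genes raised by butyrate, *Hist1h1e* and *Hist1h1d*, had overlapping groups with βOHB. *Hist1h1c* (chromosome 13 from 23738808 to 23740367), which encodes H1.2, measured 199, 203 and 245 CPM in controls, 174, 124 and 191 with βOHB and 1530, 1570 and 1760 with butyrate. *H1f0* (chromosome 15 from 79028450 to 79030504), which encodes H1.0, measured 99.9, 100 and 106 CPM in controls, 86.8, 86.5 and 90.8 with βOHB and 853, 849 and 917 with butyrate. Both had every βOHB library below every control. Of 10 genes known for butyrate, 3 were lower and 0 higher at P below 0.05, beside 3.67% and 3.48% of all genes. In 3 of the 10 every βOHB library was below every control, beside 6.51% of all genes. The log2 fold changes with βOHB were -0.41 for *Hist1h1c* (adjusted p = 0.492, edgeR) and -0.21 for *H1f0* (adjusted p = 0.506). The butyrate changes were 2.91 and 3.10. The direct difference, βOHB minus butyrate, was -3.31 for each gene, with intervals from -3.52 to -3.10 and from -3.43 to -3.19 and an FDR below 0.05. The groups overlapped for *Hist1h1e* (-0.27, interval -0.64 to 0.10) and *Hist1h1d* (0.00, interval -0.39 to 0.39), which rose with butyrate by 4.53 and 5.52. *Phlda3*, a p53 target that holds back Akt, was lower with both compounds, at 209, 189 and 204 CPM in controls, 172, 181 and 169 with βOHB and 63.6, 61.4 and 66.8 with butyrate. *Inppl1*, a lipid phosphatase of insulin signalling, was at 136, 124 and 125 CPM in controls against 128, 134 and 128 with βOHB (interval -0.12 to 0.15) and 42.9, 45.1 and 48.1 with butyrate.

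The adipocyte programme did not differ detectably with βOHB. Of 28 adipogenic factors and PPAR regulators, 0 passed P below 0.05 with edgeR or DESeq2 and 2 were lower with limma-voom. The median log2 fold change was 0.02. Of the 28, 28 were bounded within ±1 and 25 within ±0.5, beside 84.3% and 66.9% of all genes. With butyrate 6 of the same genes were higher and 16 lower at an FDR below 0.05, beside 30.7% higher and 30.3% lower among all genes. *Pparg*, the master regulator of fat cells, was at 262, 266 and 261 CPM in controls, 257, 298 and 270 with βOHB and 136, 144 and 127 with butyrate. Its interval ran from -0.07 to 0.20 with βOHB. *Adipoq* had an interval from -0.11 to 0.34, *Cebpa* from -0.18 to 0.18 and *Slc2a4*, the insulin-responsive glucose transporter, from -0.23 to 0.23. Of 24 adipocyte identity genes, *Fabp5* and *Cidea* were lower and *Adrb3* higher at P below 0.05, beside 3.67% lower and 3.48% higher among all genes.

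Lipolysis and lipid storage were likewise near control. *Pnpla2*, the first lipase of triglyceride breakdown, was at 1430, 1560 and 1530 CPM in controls and 1510, 1600 and 1660 with βOHB (interval -0.05 to 0.21), and *Lipe*, hormone-sensitive lipase, at 771, 731 and 717 against 816, 734 and 693 (interval -0.14 to 0.17). *Adrb3*, the β3-adrenergic receptor, was the member of 27 lipolysis genes at P below 0.05. It measured 292, 356 and 328 CPM in controls, 328, 382 and 390 with βOHB (0.17, groups overlapping, and 0.10 without control replicate 1) and 35.5, 44.5 and 38.5 with butyrate (-3.04). *Dgat2*, which makes triglycerides, was at 163, 155 and 150 CPM against 140, 150 and 181, with an interval from -0.15 to 0.16. Of 25 fatty acid synthesis genes, 0 passed P below 0.05 with edgeR or DESeq2 and 1 in each direction passed with limma-voom. *Scd1*, the stearoyl-CoA desaturase, was at 51100, 46900 and 49900 CPM against 51700, 49900 and 55800. Beside 3.67% lower among all genes, of 37 fatty acid oxidation genes 2 were lower, *Acot2* and *Acox3*, and of 16 lipid droplet genes 2 were lower, *Plin5* at 30.4, 21.7 and 27.5 CPM against 21.6, 20.6 and 19.8 (-0.36), and *Cidea*. Without control replicate 1 the values of *Acot2*, *Acox3*, *Plin5* and *Cidea* were -0.10, -0.08, -0.25 and -0.32, and each missed P below 0.05. Of 28 cholesterol genes, *Nsdhl* was higher at P below 0.05 (0.23), beside 3.48% higher among all genes, and the list median was 0.10. The value of *Nsdhl* was 0.12 without control replicate 1 and 0.06 without βOHB replicate 3, where 0 of the 28 were higher. The count was 8 without βOHB replicate 1, 6 without control replicate 2 or control replicate 3 and 3 without βOHB replicate 2. Without control replicate 1 that median was 0.03 and without βOHB replicate 3 it was 0.03, whereas without control replicate 2 it was 0.16 and without both control replicate 1 and βOHB replicate 3 -0.03.

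Among the lists of pathways, interferon response genes had the median farthest from 0. Type I interferons act through a cell surface receptor to induce a set of antiviral genes. Of 35 such genes, 14 were lower at P below 0.05 and 0 higher, beside 3.67% lower among all genes, and 34 of 35 estimates were below 0. The list median was -0.45 on the log2 scale, beside 0.00 over all genes. With limma-voom 26 were lower, with DESeq2 8 and with the 9 adipocyte libraries fitted alone 1. With a block by replicate number 26 were lower and the list median was -0.50. *Usp18*, which damps interferon signalling, measured 79.4, 41.8 and 43.9 CPM in controls and 48.6, 31.6 and 11.4 with βOHB (-0.85). *Dhx58*, an RNA sensor, was at 45.7, 30.5 and 31.9 CPM against 34.9, 22.2 and 11.6 (-0.65). *Ifih1*, the RNA sensor Mda5, was at 113, 69.9 and 69.8 CPM against 82.2, 60.1 and 35.6 (-0.50). The pattern in each was the same: control replicate 1 was the highest of the controls, βOHB replicate 3 the lowest of the βOHB libraries, and the groups overlapped. *Ifi35* was the gene of the list with groups that did not overlap, at 54.0, 38.6 and 39.9 CPM against 38.0, 33.7 and 19.9 (-0.53, adjusted p = 0.496, edgeR).

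The interferon difference depended on single libraries. The mean log2 CPM of the list was 6.795, 6.151 and 6.252 in control replicates 1 to 3, 6.546, 5.994 and 5.105 with βOHB, and 6.203, 5.515 and 5.660 with butyrate, so replicate 1 was highest in every group. Without control replicate 1, 1 gene was lower at P below 0.05 and the list median was -0.18. Without βOHB replicate 3, 1 gene was lower and the median was -0.11. Without both, the highest and the lowest library of this list, the median was 0.08. The count was 31 without βOHB replicate 1, 22 without control replicate 2 and 9 without βOHB replicate 2. Macrophage markers summed to 1360, 1170 and 1210 CPM in controls and 1230, 1250 and 1030 with βOHB, with their extremes in the same libraries, and their part in the result was not tested. Of 23 tested macrophage markers 2 were lower at P below 0.05, *Fcgr1* and *Lgals3*, beside 3.67% of all genes. Of the 23 estimates 17 were above 0, and the median was 0.08. Every βOHB library was above every control for 2 markers and below for 0, beside 6.48% and 6.51% of all genes. Without control replicate 1 the value of *Fcgr1* went from -0.68 to -0.38 and that of *Lgals3* from -0.28 to -0.06. With butyrate 18 of the 35 genes were lower at an FDR below 0.05, beside 30.3% of all genes, and the medians of the list with βOHB in macrophages, myotubes and hepatocytes were -0.11, -0.54 and 0.02.

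**Figure D4:**
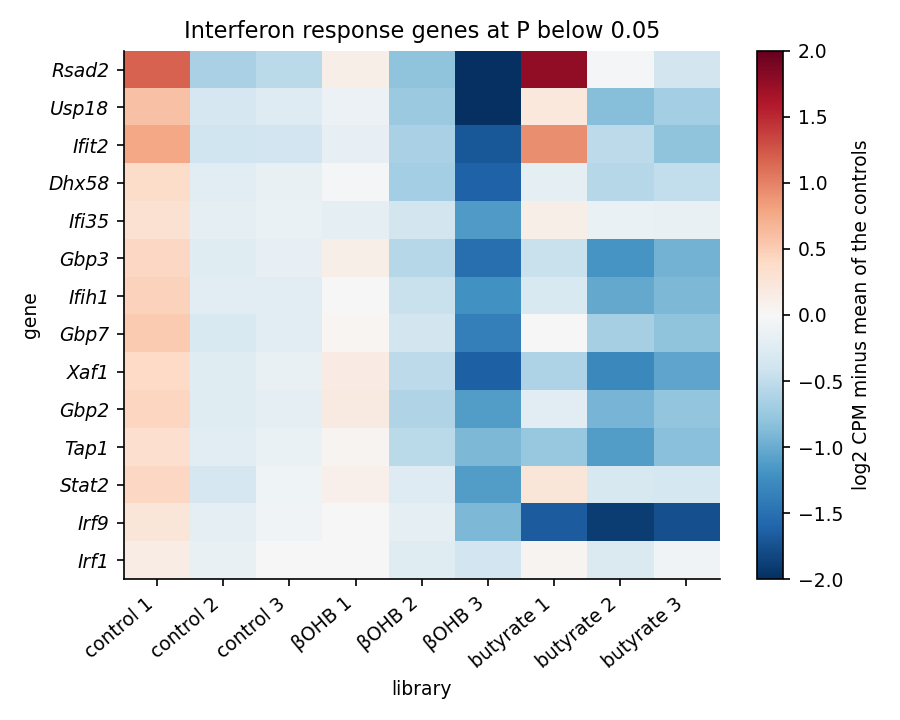
Log2 CPM of the 14 interferon response genes at P below 0.05 in each adipocyte library (columns), minus the mean of the 3 controls, with colours limited to ±2. Control 1 is above its group in each gene and βOHB 3 is the lowest of the βOHB libraries in each, while βOHB 1 lies near the control mean.

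Promoters of these genes are shown because interferon-stimulated response elements are common in the promoters of genes that type I interferons induce. A pair of GAAA half-sites with any 2 bases between them, searched on both strands in the 250 bases before each RefSeq gene start (GRCm38.p6), was found in 11 of the 26 list genes with a promoter sequence (42.3%) and in 936 of 27025 promoters in all (3.46%). Stretches around it are printed 5′ to 3′ on the strand of the gene with the motif in capitals (TTTC is the half-site on the other strand, and overlapping pairs are merged), for genes chosen after their values were seen. They lie at chr12:26456523-26456612 (*Rsad2*, minus strand), chr19:34640745-34640853 (*Ifit1*, plus strand), chr4:156200835-156200936 (*Isg15*, minus strand) and chr3:142559959-142560043 (*Gbp3*, plus strand).
Rsad2: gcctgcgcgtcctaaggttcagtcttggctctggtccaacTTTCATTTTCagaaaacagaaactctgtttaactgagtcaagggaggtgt
Ifit1: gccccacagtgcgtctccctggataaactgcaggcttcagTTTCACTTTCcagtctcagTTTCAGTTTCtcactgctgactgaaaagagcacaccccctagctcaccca
Isg15: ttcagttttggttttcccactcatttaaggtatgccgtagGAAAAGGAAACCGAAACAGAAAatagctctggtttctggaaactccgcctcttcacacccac
Gbp3: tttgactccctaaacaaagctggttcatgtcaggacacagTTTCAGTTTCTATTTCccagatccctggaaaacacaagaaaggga

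*Rsad2*, the antiviral enzyme viperin, measured 262, 73.8 and 79.9 CPM in controls and 126, 66.4 and 22.4 with βOHB (-0.95, interval -1.88 to -0.01). *Ifit1*, which binds viral RNA, was at 217, 87.0 and 107 CPM against 134, 89.6 and 34.2, *Isg15*, a ubiquitin-like modifier, at 127, 69.2 and 75.1 against 105, 63.2 and 22.8, and *Gbp3*, a guanylate-binding protein, was lower by 0.53. The groups overlapped in each. The median log2 fold change was -0.50 for the 11 list genes with the motif and -0.33 for the 15 without it. A match describes these letters and is not shown to be a bound site.

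Transcripts of the mitochondrial genome and nuclear genes of the same complexes had medians of opposite sign with βOHB. The mitochondrial genome encodes core subunits of complexes I, III, IV and V and its own ribosomal RNAs. Of 15 mitochondrial transcripts, 10 were higher at P below 0.05 and 0 lower, beside 3.48% higher among all genes, all 15 estimates were above 0, and the median was 0.28. Their sum was 71700, 80300 and 76000 CPM in controls and 78000, 97900 and 97600 with βOHB, so βOHB replicate 1 lay between control replicates 2 and 3. Their share of all counts was 7.196%, 8.153% and 7.768% against 7.853%, 9.64% and 9.605%. *mt-Co3*, a subunit of cytochrome c oxidase, measured 1520, 1160 and 1210 CPM in controls and 1550, 1810 and 1760 with βOHB (0.40). *mt-Rnr2*, the large ribosomal RNA, measured 4670, 6040 and 5970 CPM against 6470, 7530 and 7460 (0.36). *mt-Cytb*, of complex III, measured 5230, 5680 and 5370 CPM against 5690, 6980 and 6780 (0.26). In each of them the βOHB libraries lay above the controls, as they did in 4 of the 15, beside 6.48% of all genes. The count at P below 0.05 was 3 without control replicate 1, 3 without control replicate 3, 3 without βOHB replicate 2 and 4 without βOHB replicate 3. Without both control replicate 1 and βOHB replicate 3 it was 2, and the median was 0.21.

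Of 78 nuclear genes of the respiratory chain, 7 were lower at P below 0.05 and 0 higher, beside 3.67% lower among all genes, and 24 (30.8%) had every βOHB library below every control, beside 6.51% of all genes. The median was -0.09, 71 estimates were below 0, and the lowest was -0.30. All 78 were bounded within ±1 and 76 within ±0.5, beside 84.3% and 66.9% of all genes. *Cox5a*, of cytochrome c oxidase, was at 220, 192 and 199 CPM in controls and 185, 187 and 163 with βOHB (-0.19). *Cyc1*, cytochrome c1 of complex III, was at 238, 198 and 215 CPM against 195, 196 and 178 (-0.19, and -0.12 without control replicate 1). *Ndufb6*, of complex I, was at 84.1, 79.6 and 77.6 CPM against 70.5, 75.1 and 71.9 (-0.15), and *Atp5k*, of ATP synthase, at 30.5, 30.8 and 31.2 against 27.4, 24.4 and 23.4 (-0.30). The βOHB libraries were below the controls for each of these, and the differences were small. Mean log2 CPM of the list was 7.101, 7.028 and 7.019 in controls and 6.940, 7.026 and 6.920 with βOHB, so the list means overlapped.

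The respiratory chain count depended on single libraries and on scaling. It was 0 without βOHB replicate 3, 1 without control replicate 1, 14 without control replicate 2, 12 without control replicate 3 and 12 without βOHB replicate 2. With library totals alone it was 30, a setting in which 1050 of all 15340 genes were lower and 302 higher. Without both control replicate 1 and βOHB replicate 3 the respiratory chain count was 0 with a median of -0.04. Short genes as a whole lay lower with βOHB. Among genes with the shortest exons (the first of 4 equal groups by summed exon length, up to 2596 bases) 8.22% had every βOHB library below every control, against 3.86% among the longest, and the respiratory chain genes had a median length of 1696 bases. The difference in mean log2 CPM between the shortest and the longest group was -2.065, -2.068 and -2.088 in controls and -2.117, -2.103 and -2.189 with βOHB. The part of gene length in the result was not tested.

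**Figure D5:**
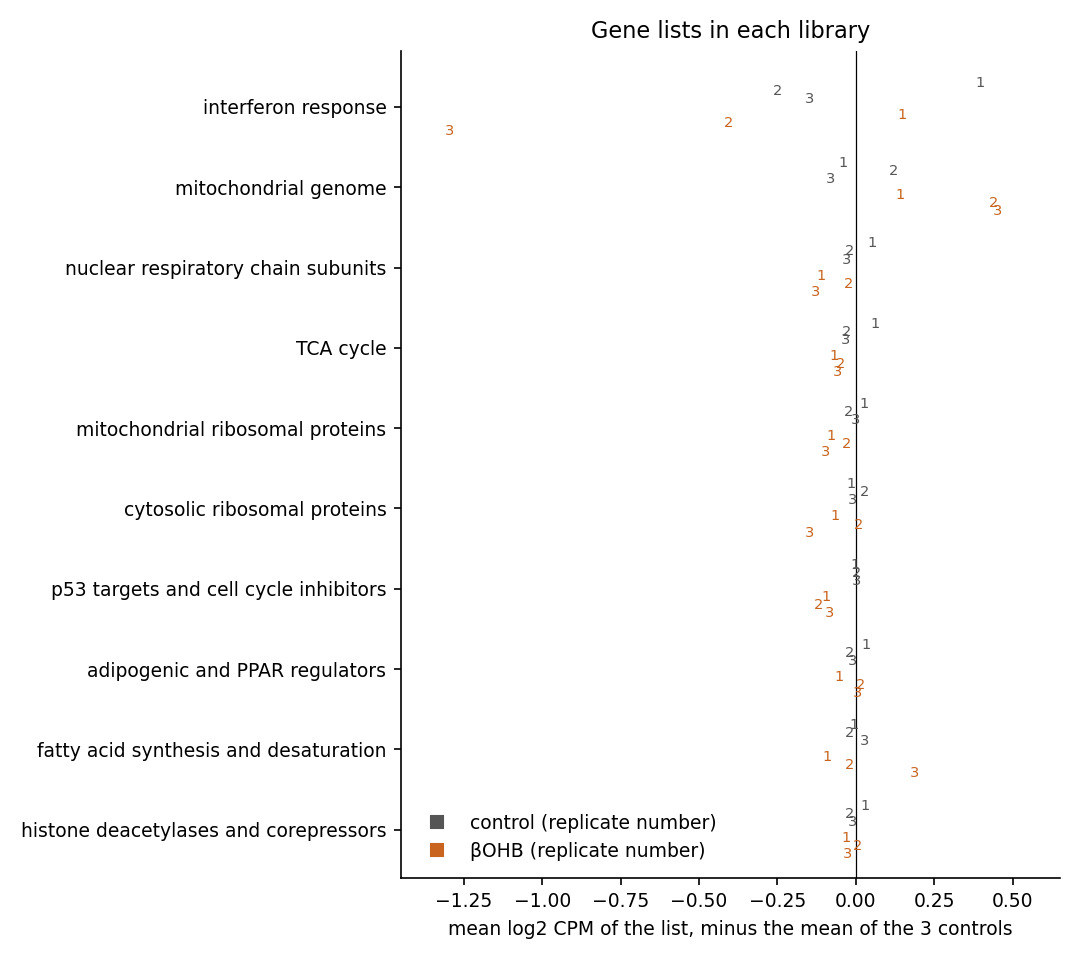
Mean log2 CPM of 10 gene lists in each library, minus the mean of the 3 controls (horizontal axis), with digits for the replicate number, grey for control and orange for βOHB. Interferon genes spread from 0.40 in control 1 to -1.29 in βOHB 3, whereas HDACs and adipogenic regulators stay near 0 in every library.

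Of 28 TCA cycle genes 3 were lower at P below 0.05 and 0 higher, beside 3.67% lower among all genes, with a median of -0.07. *Fh1*, fumarase, was at 152, 146 and 140 CPM in controls and 125, 132 and 133 with βOHB (-0.17). *Pdhb*, of the pyruvate dehydrogenase complex, was at 401, 285 and 301 CPM against 275, 282 and 274 (-0.25), and *Idh3b*, of isocitrate dehydrogenase, was lower by 0.12. Without control replicate 1 the value of *Pdhb* was -0.08 and that of *Idh3b* -0.06, and the list median was -0.03. The TCA count was 0 without control replicate 1 and 6 without control replicate 2. Among ribosomal protein genes, lists added after the respiratory chain values were seen, 9 of 78 mitochondrial members (median -0.07) and 2 of 82 cytosolic members (median -0.06) were lower. The mitochondrial ribosomal count was 3 without control replicate 1. Leaving out βOHB replicate 3 moved the cytosolic median to -0.02, and leaving out βOHB replicate 2 moved it to -0.10. The cytosolic count was 9 once βOHB replicate 2 was left out, and 1 once βOHB replicate 3, control replicate 1 or control replicate 2 was.

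Targets of p53, which halts growth after damage, included 5 of 31 genes lower at P below 0.05 and 0 higher, beside 3.67% lower among all genes, with a median of -0.13. *Aen*, a nuclease of apoptosis, was at 61.8, 49.3 and 54.0 CPM in controls and 48.3, 48.0 and 41.4 with βOHB (-0.26, adjusted p = 0.496, edgeR). *Cdkn1a*, the cell cycle inhibitor p21, was at 298, 230 and 253 CPM against 255, 230 and 190 (-0.21), with overlapping groups. *Phlda3*, *Eda2r* and *Gdf15* were lower by 0.20, 0.23 and 0.38. Mean log2 CPM of the list was 4.620, 4.624 and 4.624 in controls and 4.527, 4.504 and 4.539 with βOHB, and these did not overlap. The count was 3 without βOHB replicate 3 and 5 without both control replicate 1 and βOHB replicate 3, where the median was -0.04. The median was -0.08 without βOHB replicate 1, control replicate 1 or control replicate 3. Without control replicate 1, *Cdkn1a* was at -0.10 and *Gdf15* at -0.19.

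Of 39 collagen and matrix genes 3 were higher at P below 0.05 and 0 lower, beside 3.48% higher among all genes, with a median of 0.09. *Eln*, elastin, was at 6.28, 10.0 and 8.99 CPM in controls and 7.61, 10.7 and 21.4 with βOHB (0.65), *Fbn1*, fibrillin-1, at 502, 627 and 599 against 625, 603 and 951 (0.34), and *Lum*, lumican, at 12.6, 12.4 and 10.6 against 14.5, 15.0 and 16.0 (0.35). βOHB replicate 3 was the highest library in each. Without it 0 of the 39 were at P below 0.05 and the median was 0.03. Preadipocyte and fibroblast markers, which share *Lum* with this list, summed to 9720, 10500 and 10500 CPM in controls and 11000, 9650 and 13300 with βOHB, also highest in that library, and endothelial markers to 404, 432 and 428 against 457, 453 and 508. Their part in the matrix result was not tested.

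Among stress and clock genes, *Npas2*, a partner of the clock factors, was at 3.85, 4.01 and 3.67 CPM in controls and 4.45, 5.61 and 6.53 with βOHB (0.52), and *Arntl*, the clock factor Bmal1, at 20.7, 20.8 and 19.8 against 21.3, 22.6 and 25.9 (0.19). They were the 2 of 20 clock genes at P below 0.05, beside 3.48% higher among all genes. Every βOHB library was above every control in both, beside 6.48% of all genes. Without βOHB replicate 3 the value of *Arntl* was 0.10 and no longer at P below 0.05. Of 38 genes of amino acid and unfolded protein stress 4 were lower and 2 higher, beside 3.67% lower and 3.48% higher among all genes. *Trib3*, an inhibitor of Akt, was at 24.3, 18.2 and 20.1 CPM against 18.1, 14.0 and 16.1 (-0.37), while *Calr*, the chaperone calreticulin, was at 1430, 1960 and 1860 against 2130, 1960 and 2050 (0.23, and 0.10 without control replicate 1). Of 21 heat shock genes 2 were lower, of 33 immediate early genes 0 with edgeR or DESeq2 and 1 with limma-voom, and of 20 glucocorticoid-responsive genes and 32 glycolysis genes 0 with edgeR, limma-voom or DESeq2. *Hmox1*, for which control replicate 1 stood at 791 CPM, had a log2 fold change of -0.55, which was -0.0012 without that library.

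Compared directly at the matched dose and time, βOHB and butyrate differed widely. Of the 15340 genes, 9129 (59.5%) differed at an FDR below 0.05, 4524 higher and 4605 lower with βOHB, and 6826 (44.5%) were at P below 0.001, in 1 pair of compounds with p-values adjusted over all genes. *Adrb3* was higher with βOHB than with butyrate by 3.21 (interval 3.06 to 3.37) and *Pparg* by 1.02 (0.88 to 1.15), and *Bdh1* was lower by 2.83 (interval of the difference -3.22 to -2.43). For *Oxct1* the difference was 0.01 with an interval from -0.14 to 0.16, and for *Il1r1* 0.12 with an interval from -0.01 to 0.24. *Srp54b* was lower with βOHB than with butyrate (-2.54, interval -3.42 to -1.67).

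Whether the βOHB effect was particular to adipocytes was tested as the effect in adipocytes minus the mean effect in macrophages, myotubes and hepatocytes. With edgeR 0 genes passed an FDR of 0.05 (the smallest adjusted p was 0.1725), 902 (5.88%) had P below 0.05 and 16 (0.104%) P below 0.001. Limma-voom called 0 and DESeq2 called 2 at that FDR. *Srp54b* had a difference of -2.41, with log2 fold changes of 0.20, -0.01 and -0.03 in macrophages, myotubes and hepatocytes and an adjusted p of 0.173. *Hist1h1c* had a difference of -0.45 and *Hgf*, hepatocyte growth factor, of 0.64, at 12.8, 16.2 and 15.7 CPM in control adipocytes against 20.3, 17.2 and 20.3 with βOHB. Among list members, 11 of 78 respiratory chain genes, 5 of 28 TCA cycle genes and 6 of 31 p53 targets had a lower effect in adipocytes at P below 0.05, beside 2.89% lower and 2.99% higher among all genes. Other lists went the other way. A higher effect was found in 5 of 11 immune genes that the study named in myotubes and 5 of 23 macrophage markers. The same held for 5 of 20 proliferating markers and 5 of 32 cytokine and chemokine genes, with 0, 0, 0 and 1 lower in these lists. The medians with βOHB in macrophages, myotubes and hepatocytes were -0.06, 0.12 and 0.03 for the respiratory chain, -0.03, 0.14 and 0.01 for the TCA cycle and 0.00, 0.01 and 0.01 for p53 targets. For the mitochondrial transcripts they were 0.16, 0.12 and 0.11. Of these 15 transcripts 0 differed at P below 0.05 in the test across cell types, and for interferon genes 1 was higher and 2 lower.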

How the data were processed

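The deposited table holds estimated counts per gene for 54347 genes, which the authors made with Salmon 1.2.1 on transcripts of GRCm38.p6 from paired reads of 150 bp. The study describes a scaling by transcript length and library size, but 60% of the deposited values above 0 were whole within 0.001. The table was therefore read as estimates before that scaling. Estimates were rounded and not adjusted for transcript length here. Samples were grouped by their labels. All 36 libraries were fitted with edgeR 4.0.16 in R 4.3.3 (TMM, quasi-likelihood F test, 12 group means, Benjamini-Hochberg adjustment over all tested genes), and 15340 genes that passed a CPM of 1 in 6 or more libraries were kept. The 95% intervals come from the standard errors of that fit. Log2 CPM used a prior count of 2. Symbols came from GENCODE M21 (54094 genes matched).

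The genes and 47 gene lists were chosen with earlier results of these data known, so lists are described by counts and medians and carry no test. A pair of ribosomal lists was added after seeing the data. Named genes were those at an FDR below 0.05 and their copies, the 10 raised and 10 lowered of smallest P at P below 0.001, up to 5 members of each list at P below 0.05 and its 3 most abundant, a set list of genes of ketone body and adipocyte biology, and the 5 in each direction of smallest P in the test across cell types. *Zfp941*, *Lancl3*, *Hdac1*, *Hdac3*, *Hist1h1e*, *Hist1h1d*, *mt-Cytb* and the promoter examples lie outside this rule and were chosen after their values were seen.

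Depth was 19210892 to 23221473 counts in the 6 libraries. The alternatives were limma-voom (limma 3.58.1), DESeq2 1.42.0, other scalings and filters, fewer libraries in the fit, a block by replicate number, single libraries left out, and a prior count of 0.5. Leaving out control replicate 1 and βOHB replicate 3 together was chosen after seeing the data. No replicate pair agreed within sampling noise.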

Additional observations from a re-analysis of the deposited data

How the results depend on the processing

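Of 4265 values of the 251 named genes under 17 alternatives, 143 lost P below 0.001 and 67 gained it, and 212 turned direction, 0 of them in genes at P below 0.001. For the 103 named genes at P below 0.05, 331 of 1751 values lost that threshold, and 9 turned direction, all without both control replicate 1 and βOHB replicate 3. Of 686 list medians, most of them near 0, 78 turned sign. The number of genes at P below 0.001 with βOHB, 26 as reported, was 52 with limma-voom, 48 with DESeq2, 43 with library totals alone, 266 with no filter on low counts, 12 with the 9 adipocyte libraries, 3 with the 6 libraries compared and 17 without both control replicate 1 and βOHB replicate 3, and 11 to 99 with 1 library left out. At an FDR below 0.05, 1 as reported, it was 0 with limma-voom, 3 with DESeq2, 0 with RLE factors, 192 with no filter, 0 with the 9 adipocyte libraries, 0 with the 6 compared, 0 without both libraries and 0 to 2 with 1 left out. The unfiltered fit tests many genes with near 0 counts. At P below 0.05, 1097 as reported, it was 1671 with no filter, 674 without both libraries and 575 to 1459 with 1 left out.

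Deviations of same-numbered control and βOHB libraries correlated at 0.225, -0.107 and 0.167. Differently numbered libraries were not set beside them, so these values do not decide whether the replicate numbers pair the libraries. With the replicate block, 46 genes were at P below 0.001 and 0 at an FDR below 0.05, and 26 interferon, 12 respiratory chain and 4 cytosolic ribosomal genes were lower.

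Members of all lists at P below 0.05 numbered 105, against 161 with totals, 191 with no filter, 67 without both libraries and 43 to 172 with 1 left out. With totals, 1050 of all 15340 genes were lower at P below 0.05 and 302 higher, against 563 and 534 as reported. Interferon genes lower numbered 26 with limma-voom, 8 with DESeq2, 28 with no filter, 1 with the 9 adipocyte libraries, 0 without both libraries (which follows from leaving out the extremes of that list) and 1 to 31 with 1 left out. Respiratory chain genes lower numbered 30 with totals, 17 with the 9 libraries, 0 without both and 0 to 14 with 1 left out. Mitochondrial transcripts higher numbered 2 without both and 3 to 11 with 1 left out. TCA cycle genes lower numbered 10 with totals, 0 without both and 0 to 6 with 1 left out, and p53 targets 3 to 7. Cytosolic ribosomal genes lower numbered 6 with limma-voom, 10 with totals, 9 with the 9 libraries, 1 without both and 1 to 9 with 1 left out, and mitochondrial ribosomal genes 22 with totals, 4 with no filter, 1 without both and 3 to 12. Genes whose βOHB effect differed from other cells at P below 0.001 numbered 35 with DESeq2 (2 at an FDR below 0.05), 247 with no filter (150) and 7 to 36 with 1 left out (0 to 0). Genes bounded within ±1 numbered 12483 to 12763 and within ±0.5 9522 to 10102 with 1 left out. With 1 left out, butyrate against control gave 8717 to 8825 genes at an FDR below 0.05 and 6325 to 6435 at P below 0.001, and βOHB against butyrate 8554 to 8734 and 6155 to 6337. Apart from the settings named, the causes of these moves were not tested. Below 1 CPM, depth limits what could be detected.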

Other observations

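Genes with long exons were slightly higher with βOHB. Split by summed exon length into 4 groups of equal size, the median log2 fold change was -0.02 in the shortest, -0.01 in the next, 0.01 in the third and 0.04 in the longest, which begins at 6572 bases. Every βOHB library lay above every control for 4.33%, 4.51%, 6.24% and 10.9% of these genes.

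Single adipokine and immune genes outside the groups described above also stood at P below 0.05 without an FDR below 0.05. *Saa3*, an acute-phase protein, was at 4.59, 5.86 and 6.71 CPM in controls and 21.8, 7.09 and 7.34 with βOHB, so the difference rested on βOHB replicate 1. *Casp1*, the inflammasome protease, was at 12.9, 12.9 and 12.7 CPM against 12.1, 10.0 and 8.88 (-0.31, and -0.20 without βOHB replicate 3). Of 16 NLRP3 inflammasome genes 2 were higher and 1 lower at P below 0.05, beside 3.48% and 3.67% of all genes. *Igf1*, a growth factor, was at 164, 197 and 188 CPM against 195, 215 and 242, with overlapping groups. *Cd4*, a lymphocyte marker, had no counts in controls and 0.0451 to 0.159 CPM with βOHB, near the level of single reads. *Mogat2*, of triglyceride synthesis, had 2, 0 and 2 counts in controls and 0 in each βOHB library, and no fold is given.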
